A study of Mus musculus with 6 samples.

Results

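The genes described here are the core genes of the circadian clock: *Per1*, *Per2*, *Per3*, *Cry1*, *Cry2*, *Nr1d1*, *Nr1d2*, *Dbp*, *Arntl* (also called *Bmal1*) and *Clock*. They were taken by gene symbol from a count table of 40166 genes, and 10 of 10 symbols were found in it, 1 row each. RNA was sequenced from 6 subcutaneous tumors of YUMM3.3, a Braf-mutant mouse melanoma cell line grown in C57BL/6 mice. The vehicle group (3 tumors, numbered 7, 8 and 9) came from mice given water. The RGS group (3 tumors, numbered 10, 11 and 12) came from mice given rigosertib (RGS), a small molecule described as a RAS mimetic, by oral gavage at 300 mg/kg. All tumors were collected at 17 days of treatment, and all come from the same cell line injected into the lower back. The study's methods give an age of 8 to 10 weeks, in males or females, when tumors were started. The age and sex of these 6 mice are not in the labels. The hour of the day at which each tumor was collected is not given in the sources used here, and its part in the values below was not tested. The labels number the tumors but do not say that each came from a separate mouse, so p-values measure the spread between these tumors.

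The mammalian clock is a feedback loop of transcription. ARNTL and CLOCK form a dimer that binds E-boxes and activates *Per*, *Cry*, *Nr1d* and *Dbp* genes, and PER and CRY proteins then repress that dimer. In a second loop the nuclear receptors REV-ERB alpha and beta (*Nr1d1*, *Nr1d2*) repress *Arntl* through ROR response elements, which ROR receptors activate. In most peripheral tissues *Arntl* therefore peaks at the opposite time of day from *Dbp* and *Nr1d1*.

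The elements through which these loops act can be read in the promoters. RefSeq promoter windows of 300 bases (250 before and 50 after a transcript start, GRCm38.p6) were at hand for 9 of the 10 genes, *Per2* being the exception. They were searched on both strands for the E-box (CACGTG), a variant E-box (CACGTT), the D-box bound by DBP (TTATGTAA), the core of the ROR response element (TAGGTCA) and a variant of it (TAGGTTA), and the cyclic AMP response element (TGACGTCA). The motifs do not contain one another. The stretches shown are the matches found in the windows of these genes, each of 30 bases, 5′ to 3′ along the gene, with the motif in capitals.
*Cry1* E-box (chr10:85185097-85185126, minus strand, upstream): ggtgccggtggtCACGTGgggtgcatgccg
*Cry1* variant E-box, read from the other strand (chr10:85185116-85185145, minus strand, upstream, overlapping the stretch above): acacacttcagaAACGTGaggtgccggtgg
*Cry2* variant E-box, read from the other strand (chr2:92434218-92434247, minus strand, upstream): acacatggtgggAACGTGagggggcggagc
*Per1* E-box (chr11:69098771-69098800, plus strand, intronic in a longer transcript): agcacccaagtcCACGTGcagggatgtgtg
*Nr1d1* variant E-box, read from the other strand (chr11:98775388-98775417, minus strand, upstream): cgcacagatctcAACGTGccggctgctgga
*Per3* D-box, distal (chr4:151044852-151044881, minus strand, upstream, inside an intron of *Camta1*): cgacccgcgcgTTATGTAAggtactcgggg
*Per3* D-box, proximal (chr4:151044805-151044834, minus strand, as above): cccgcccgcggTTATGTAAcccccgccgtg
*Arntl* variant ROR element (chr7:113207485-113207514, plus strand, untranslated part of an exon): ggagcggattggtcggaaagTAGGTTAgtg
*Arntl* ROR element (chr7:113207529-113207558, plus strand, untranslated part of an exon): gaaggcagaaagTAGGTCAgggacggaggt

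*Per3* was the only one of the 9 genes with a D-box in its window, and it had a pair of them, while 0.935% of 32817 mouse windows held at least 1. *Arntl* was the only one with the ROR core (2.61% of windows) or its variant (1.44%), and it had both. The E-box was found for *Per1* and *Cry1* (7.15% of windows) and the variant E-box for *Cry1*, *Cry2* and *Nr1d1* (4.69%). The cyclic AMP response element was found for 0 of the 9 (1.79% of windows). *Per1* and *Arntl* had 2 windows each and *Clock* had 3, so these genes had more places for a match. The percentages are per window and not per gene. These matches describe the letters of the windows. Elements further away, such as those known inside introns, were not searched.

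With RGS the members of the clock did not move together. *Dbp*, *Nr1d1*, *Nr1d2*, *Per3* and *Clock* fell and *Arntl* rose, while *Per1*, *Per2*, *Cry1* and *Cry2* did not pass the test. The largest difference was in *Dbp*, 3.03-fold lower with RGS, followed by *Nr1d1* (2.11-fold), *Per3* (2.07-fold) and *Nr1d2* (1.99-fold). All 10 members passed the low-count filter, which asked for a group median of 5 or more counts. They were compared by edgeR's quasi-likelihood test on the counts, at an adjusted p under 0.05 (Benjamini-Hochberg over 15355 genes). Of the 10 members, 5 were lower, beside 16.5% of all genes tested, and 1 was higher, beside 16.3%. The other 4 did not pass, beside 67.2% of all genes. The members were chosen with earlier results of these data known, so these shares are not a test of the set. The groups were apart in 7 members (45.8% of all genes tested), with the RGS values all under the vehicle values in 6 (24.0%) and all over them in 1 (21.7%). The median log2 fold change was -0.62 over the members and -0.05 over all genes tested.

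**Figure D1:**
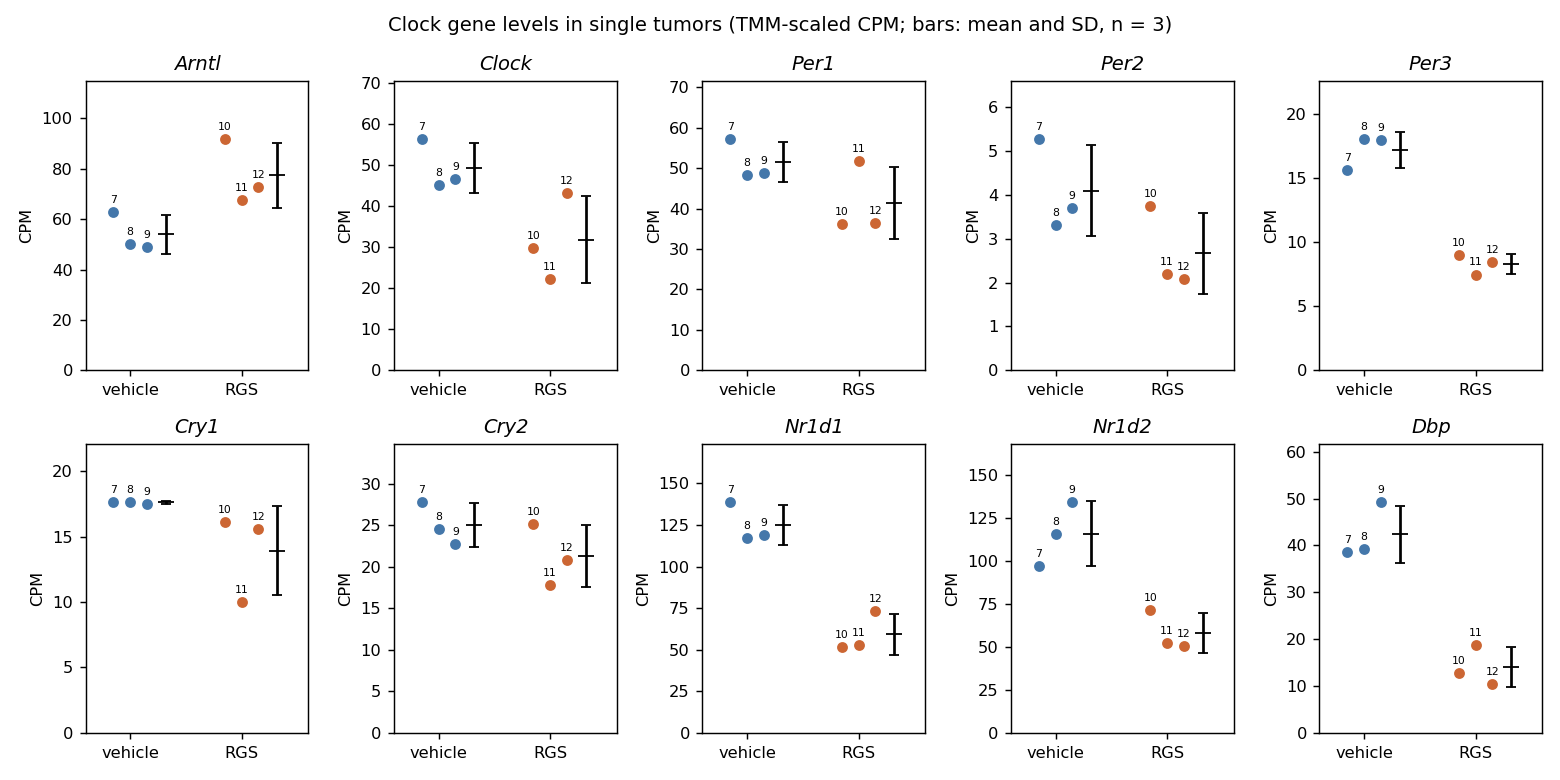
Level of each clock gene in each tumor, in CPM scaled by TMM factors (y axis, starting at 0), with the tumor number beside each point. Blue points are vehicle tumors, orange points are RGS tumors, and the bars give the mean and SD (n = 3). The groups are apart in *Arntl*, *Clock*, *Per3*, *Cry1*, *Nr1d1*, *Nr1d2* and *Dbp* and overlap in *Per1*, *Per2* and *Cry2*.

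*Dbp* encodes a PAR bZIP transcription factor that carries clock timing to output genes through D-boxes. It lies on chromosome 7 of GRCm38 from 45705088 to 45710203 (ENSMUSG00000059824.12). In CPM, counts scaled to a common library size by TMM factors, its level was 38.6, 39.2 and 49.4 in vehicle tumors 7, 8 and 9 and 12.7, 18.8 and 10.5 in RGS tumors 10, 11 and 12. The groups were far apart, and RGS tumor 11 was the highest of its group. edgeR gave a log2 fold change of -1.60 ± 0.24 (SE, with a 95% interval of -2.10 to -1.10) at an adjusted p = 4.68e-05. It placed *Dbp* at percentile 10.4 of the log2 fold changes of all genes tested.

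*Nr1d1* and *Nr1d2* encode the heme-binding repressors REV-ERB alpha and REV-ERB beta. *Nr1d1* (chromosome 11, 98767932 to 98775333, ENSMUSG00000020889.11) was at 139, 117 and 119 CPM with vehicle and at 51.5, 52.7 and 73.5 CPM with RGS. Tumor 12 was the highest of the RGS tumors and still below all vehicle tumors. edgeR gave a log2 fold change of -1.08 ± 0.18 (SE) at an adjusted p = 1.26e-04. *Nr1d2* (chromosome 14, 18204054 to 18239127, ENSMUSG00000021775.11) was at 97.0, 116 and 134 CPM with vehicle and at 71.4, 52.4 and 50.7 CPM with RGS, again without overlap. edgeR gave a log2 fold change of -0.99 ± 0.18 (SE) at an adjusted p = 3.77e-04. Within a tumor and per kilobase of gene length, the log2 ratio of *Nr1d1* to *Nr1d2* was 0.93 ± 0.36 with vehicle and 0.84 ± 0.50 with RGS (SD, n = 3 each), so the balance between the paralogs moved by less than the spread between tumors.

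The period genes differed in size of change and in level. *Per3* (chromosome 4, 151003652 to 151044665, ENSMUSG00000028957.12), the period gene not needed for rhythm itself, was at 15.6, 18.0 and 17.9 CPM with vehicle and at 8.95, 7.46 and 8.44 CPM with RGS. The RGS tumors lay close together and well below the vehicle tumors (log2 fold change -1.05 ± 0.27, SE, 95% interval -1.61 to -0.49, edgeR adjusted p = 0.00556). *Per1* (chromosome 11, 69095217 to 69109960), which also responds quickly to hormones and cyclic AMP, was at 57.2, 48.3 and 48.8 CPM with vehicle and at 36.1, 51.7 and 36.5 CPM with RGS. RGS tumor 11 lay among the vehicle tumors, and the other RGS tumors lay below them. The log2 fold change of *Per1* was -0.32 with a 95% interval from -0.72 to 0.09 (adjusted p = 0.223 from edgeR). *Per2* (chromosome 1, 91415982 to 91459324) was the scarcest member, at 185, 93 and 86 counts with vehicle and 79, 29 and 34 with RGS. In CPM it was at 5.28, 3.31 and 3.70 with vehicle and 3.74, 2.18 and 2.08 with RGS, and the groups overlapped through RGS tumor 10. Its interval, from -1.75 to 0.52 on the log2 scale, holds both no change and a decrease as large as that of *Per3*.

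The cryptochromes, the repressors of the ARNTL and CLOCK dimer that act with PER proteins, did not pass the test. *Cry1* (chromosome 10, 85131700 to 85185064) was at 17.7, 17.7 and 17.5 CPM with vehicle, the tightest group of any member, and at 16.1, 10.02 and 15.6 CPM with RGS. The groups did not overlap, but RGS tumors 10 and 12 lay close to the vehicle tumors and tumor 11 stood apart. The log2 fold change was -0.34 (95% interval -0.88 to 0.21, adjusted p = 0.349 from edgeR). *Cry2* (chromosome 2, 92403646 to 92434043) was at 27.9, 24.6 and 22.7 CPM with vehicle and at 25.2, 17.8 and 20.9 CPM with RGS, and the groups overlapped (log2 fold change -0.23, 95% interval -0.70 to 0.23). For *Per1*, *Cry1* and *Cry2* the intervals exclude a decrease as large as the fitted one of *Dbp*, and they do not exclude no change.

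The partners of the activating dimer moved in opposite directions. *Arntl* (chromosome 7, 113207465 to 113314126, ENSMUSG00000055116.8) was the only member to rise, from 62.7, 50.3 and 48.8 CPM with vehicle to 91.9, 67.5 and 72.7 CPM with RGS. The gap between vehicle tumor 7 and RGS tumor 11 was small beside the range of either group. edgeR gave a log2 fold change of 0.52 ± 0.18 (SE) at an adjusted p = 0.0325. This call was lost when single tumors were left out, with adjusted p = 0.120 without vehicle tumor 8, 0.101 without vehicle tumor 9, 0.154 without RGS tumor 10 and 0.0608 without RGS tumor 12. It was also lost when counts were scaled by library size alone (log2 fold change 0.38, adjusted p = 0.136 from edgeR), and the direction stayed the same in each of these fits.

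*Clock* (chromosome 5, 76209868 to 76304792, ENSMUSG00000029238.11), which encodes the DNA-binding partner of ARNTL, was at 56.5, 45.3 and 46.6 CPM with vehicle and at 29.8, 22.4 and 43.3 CPM with RGS. RGS tumor 12 came close to the lowest vehicle tumor. edgeR gave a log2 fold change of -0.63 ± 0.22 (SE) at an adjusted p = 0.0350. The call was lost without vehicle tumor 7 (adjusted p = 0.0854), vehicle tumor 8 (0.0618), RGS tumor 10 (0.119) or RGS tumor 11 (0.160), with a log2 fold change between -0.67 and -0.45 in these fits. Per kilobase, the log2 ratio of *Arntl* to *Clock* was 1.02, 1.02 and 0.93 in the vehicle tumors and 2.49, 2.46 and 1.62 in the RGS tumors. The vehicle tumors had nearly the same ratio, and each RGS tumor had a higher one.

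**Figure D2:**
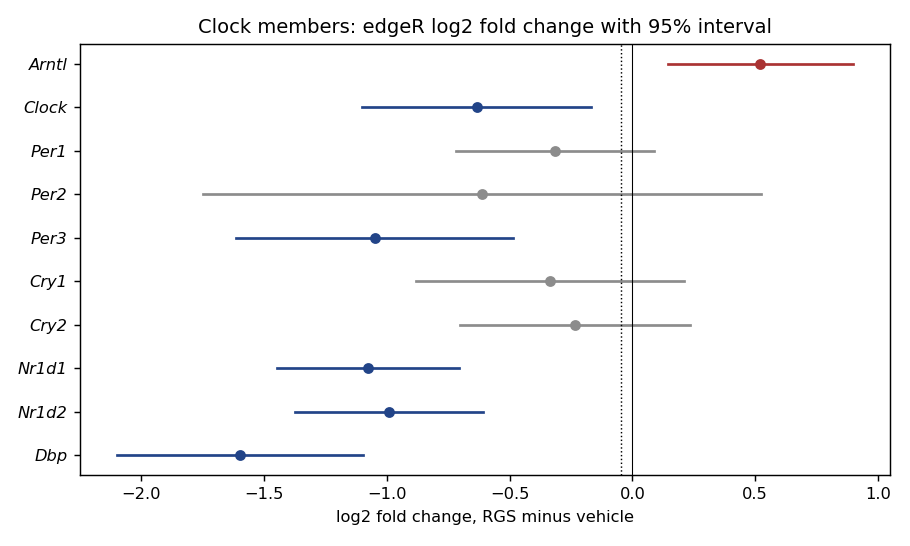
Log2 fold change of each clock gene, RGS minus vehicle, from edgeR (points) with its 95% interval (lines). Blue marks genes lower and red marks genes higher at an adjusted p under 0.05, grey marks the rest, the solid line is 0 and the dotted line is the median of all genes tested (-0.05). *Dbp* is farthest to the left at -1.60 and *Arntl* alone lies to the right, at 0.52.

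Ratios within a tumor do not depend on how the libraries were scaled. The log2 ratio of *Dbp* to *Arntl* was -0.70, -0.36 and 0.02 in the vehicle tumors and -2.85, -1.84 and -2.79 in the RGS tumors, a difference of -2.15 between the group means. The ratio of *Nr1d1* to *Arntl* was 1.15, 1.22 and 1.28 with vehicle and -0.84, -0.36 and 0.01 with RGS. *Nr1d1* thus had a higher CPM than *Arntl* in each vehicle tumor, and a lower or nearly equal one in the RGS tumors. For all 9 genes the RGS tumors had ratios to *Arntl* under the whole vehicle range, with differences of the means from -2.15 (*Dbp*) to -0.76 (*Cry2*). The rise of *Arntl* enters every one of these 9 ratios, so they are not separate observations, and no test was run on them. It also lowers the ratio of a gene that does not change. *Per1*, *Per2* and *Cry2* overlapped between the groups in CPM but not in this ratio. How many of all genes tested have such ratios to *Arntl* was not counted.

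**Figure D3:**
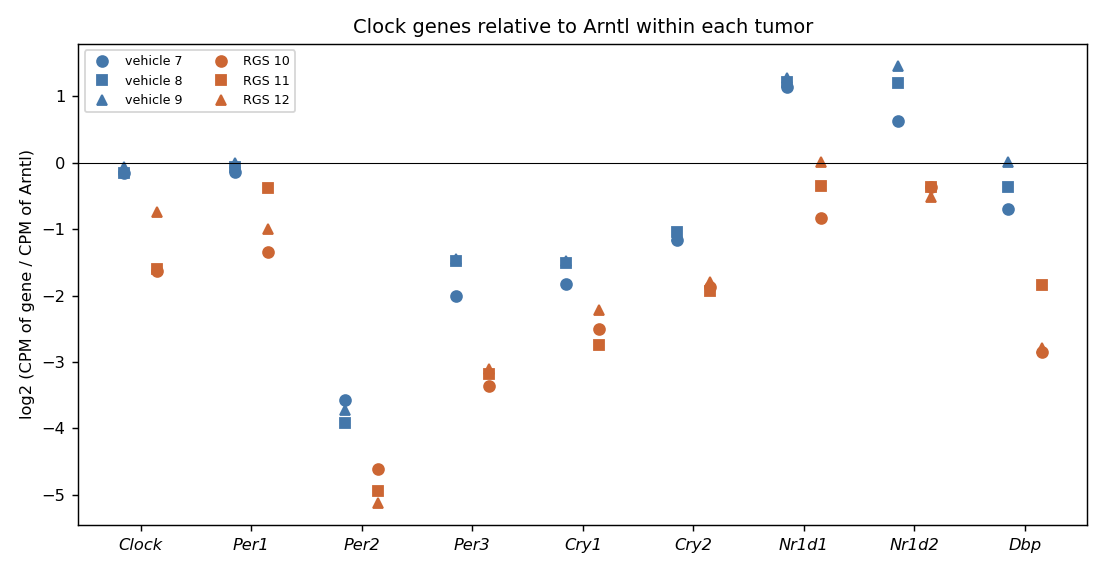
Log2 ratio of each clock gene's CPM to that of *Arntl* in the same tumor (y axis), with vehicle tumors in blue and RGS tumors in orange, 1 symbol per tumor. For each gene the 3 RGS tumors lie below the 3 vehicle tumors, with the widest separation of means for *Dbp*, at -2.15. The rise of *Arntl* enters each of these ratios.

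In reads per kilobase of gene length and per total (RPKM), *Nr1d1* was the most abundant member with vehicle (40.6 ± 3.98 RPKM, SD, n = 3), ahead of *Nr1d2* (21.4 ± 3.46) and *Dbp* (14.2 ± 2.02). *Per1* (9.14 ± 0.888) and *Arntl* (7.17 ± 1.01) followed, then *Cry1* (5.27 ± 0.0299), *Cry2* (3.96 ± 0.413), *Clock* (3.60 ± 0.446), *Per3* (1.79 ± 0.144) and *Per2* (0.700 ± 0.178). *Cry2* and *Clock* did not differ in level beyond their spread. With RGS the order changed: *Nr1d1* (19.3 ± 4.01 RPKM) still led, and *Arntl* (10.3 ± 1.71) stood beside *Nr1d2* (10.8 ± 2.12), from which it did not differ beyond the spread, while *Dbp* (4.69 ± 1.44) came to the level of *Cry1* (4.17 ± 1.02).

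Relative to the mean, the spread between tumors was larger with RGS for all 10 members. The coefficient of variation of the CPM values (SD over mean) ran from 0.566% (*Cry1*) to 25.4% (*Per2*) with vehicle and from 9.15% (*Per3*) to 34.8% (*Per2*) with RGS. The median over all genes tested was 21.5% with vehicle and 21.6% with RGS, and 9 of the 10 members were below it with vehicle. With RGS, *Per1*, *Per3*, *Cry2*, *Nr1d1*, *Nr1d2* and *Arntl* were below it, and *Per2*, *Cry1*, *Dbp* and *Clock* above it. How many of all genes tested spread more with RGS was not counted. The RGS libraries were also smaller, and the part of depth in this spread was not tested. The RGS tumors did not share 1 order. Tumor 11 had the highest *Dbp* and *Per1* and the lowest *Cry1*, *Cry2* and *Clock* of its group, whereas tumor 12 had the highest *Nr1d1* and *Clock* and the lowest *Dbp*.

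A wider list of 19 other clock pathway genes was counted in the same fit, and all 19 passed the filter. Of these, 3 were lower with RGS (*Ciart*, *Bhlhe40* and *Tef*), 3 were higher (*Csnk1e*, *Csnk1d* and *Rorb*) and 13 did not pass. These shares (15.8% lower, 15.8% higher and 68.4% not passed) were near those over all genes tested (16.5%, 16.3% and 67.2%). Their median log2 fold change was 0.30. Among repressors, *Ciart*, which encodes CHRONO, an inhibitor of the ARNTL and CLOCK dimer, was at 13.7, 12.9 and 12.3 CPM with vehicle and 0.284, 4.90 and 1.65 CPM with RGS. The RGS tumors ranged widely, with 6, 65 and 27 counts, and all lay far below the vehicle tumors (log2 fold change -2.55 ± 0.59, SE, edgeR adjusted p = 0.00264). The size moved with single tumors, and the log2 fold change of *Ciart* was -3.80 without RGS tumor 11 and -2.01 without RGS tumor 10. *Bhlhe40*, which encodes the E-box repressor DEC1, was at 95.3, 71.7 and 70.6 CPM with vehicle and 28.2, 20.1 and 25.9 CPM with RGS (log2 fold change -1.68 ± 0.20, SE, edgeR adjusted p = 3.20e-06). Its paralog *Bhlhe41* overlapped between the groups (-0.43, adjusted p = 0.165), and *Cipc*, another inhibitor of CLOCK, had a log2 fold change of 0.03.

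Of the D-box factors other than DBP, only *Tef* passed the test. *Tef*, a PAR bZIP activator like DBP, was at 86.0, 59.9 and 68.1 CPM with vehicle and 46.3, 50.2 and 44.6 CPM with RGS, lower in each RGS tumor (log2 fold change -0.60, adjusted p = 0.0146 from edgeR). *Nfil3*, the repressor that binds the same D-boxes, was at 60.4, 55.4 and 52.5 CPM with vehicle and 62.3, 71.0 and 84.3 CPM with RGS. Each RGS tumor was above each vehicle tumor, but the difference did not pass the test (log2 fold change 0.37, adjusted p = 0.109). *Hlf*, the remaining PAR bZIP gene, had 0, 1 and 0 counts with vehicle and 6, 15 and 0 with RGS, too few to compare.

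Among activators, *Rorb*, a ROR receptor, was at 18.5, 12.9 and 21.2 CPM with vehicle and 30.2, 28.3 and 36.9 CPM with RGS (log2 fold change 0.86, adjusted p = 0.00853 from edgeR, and 0.0682 without vehicle tumor 8). *Rora* overlapped between the groups (log2 fold change 0.46, adjusted p = 0.380). *Npas2*, the substitute for *Clock*, had 1 to 23 counts per tumor. *Arntl2*, the paralog of *Arntl*, was at 53.0, 61.2 and 50.8 CPM with vehicle and 83.4, 83.1 and 60.8 CPM with RGS. Tumor 12 lay among the vehicle tumors, and the difference missed the threshold (log2 fold change 0.46, adjusted p = 0.0535 from edgeR), whereas 6 of 17 other settings placed it past the threshold.

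*Csnk1e* and *Csnk1d* encode the casein kinases that phosphorylate PER. *Csnk1e* was at 274, 223 and 229.9 CPM with vehicle and at 454, 509 and 520.1 CPM with RGS, each RGS tumor well above the vehicle group (log2 fold change 1.03 ± 0.15, SE, edgeR adjusted p = 4.13e-05). *Csnk1d* had a log2 fold change of 0.85 (adjusted p = 3.28e-04). *Fbxl21*, *Btrc*, *Gsk3b*, *Ncor1*, *Hdac3* and *Timeless* did not pass, with log2 fold changes from -0.58 to 0.31.

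**Figure D4:**
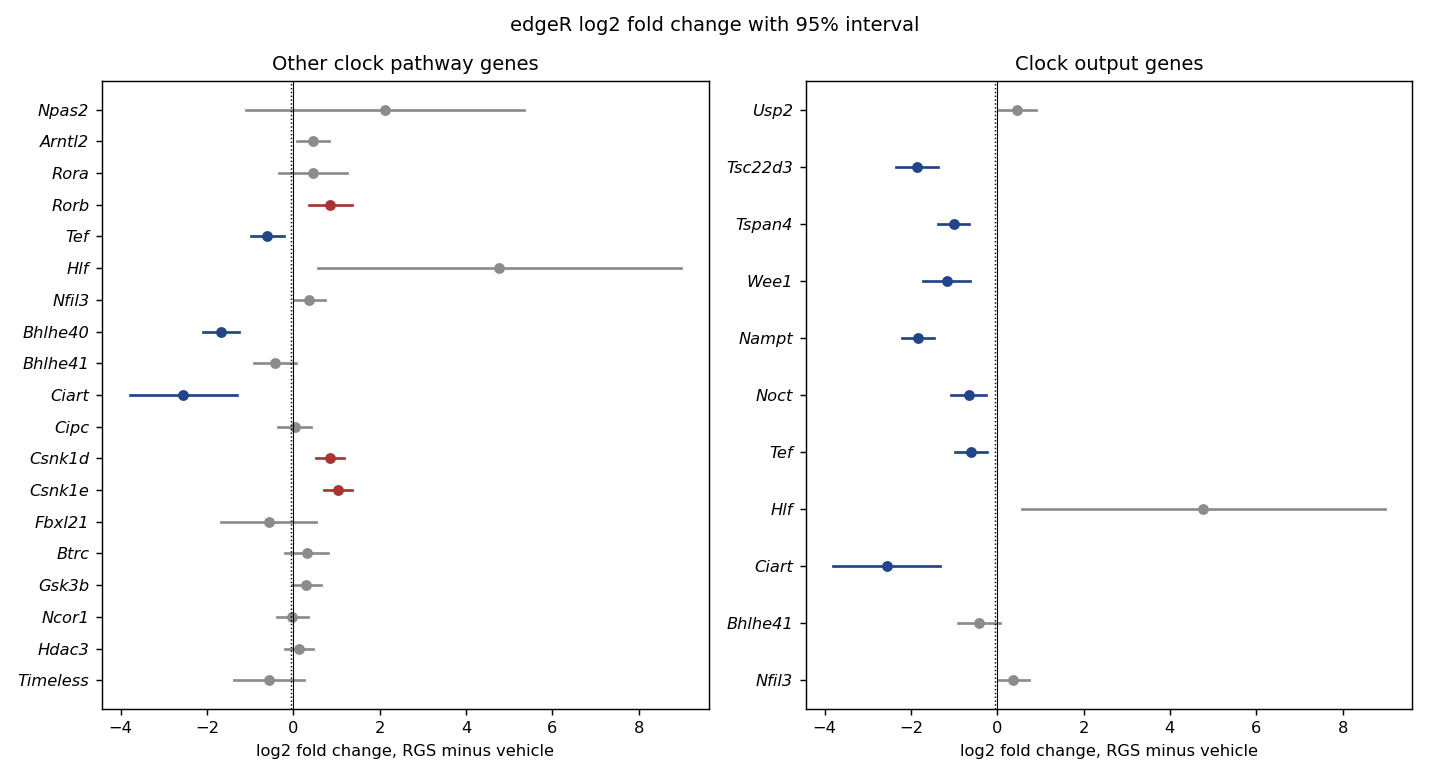
Log2 fold change, RGS minus vehicle, with 95% intervals from edgeR, for the 19 other clock pathway genes and the 11 clock output genes. Blue marks genes lower and red marks genes higher at an adjusted p under 0.05, grey marks the rest, and the dotted line is the median of all genes tested. The output genes hold 7 blue and 0 red points, and the long intervals of *Hlf* and *Npas2* belong to genes with 23 or fewer counts per tumor.

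Genes downstream of the clock that cycle in many mouse tissues formed a list of 11, of which 5 are also in the list above. All 11 were tested, 7 were lower with RGS, 0 were higher and 4 did not pass, with a median log2 fold change of -0.66. The shares over all genes tested were 16.5% lower, 16.3% higher and 67.2% not passed. This list was chosen with earlier results of these data known, so the comparison of shares is not a test of the list. At an unadjusted p under 0.05 from edgeR, 3 output genes were higher, *Usp2*, *Hlf* and *Nfil3*, and DESeq2 called 0 and limma voom 2 at an adjusted p under 0.05. *Nampt*, the rate-limiting enzyme of NAD salvage, was at 239, 318 and 362 CPM with vehicle and at 91.1, 75.8 and 91.0 CPM with RGS (log2 fold change -1.83 ± 0.18, SE, edgeR adjusted p = 2.86e-07). *Tsc22d3*, a leucine zipper protein induced by glucocorticoids, was at 47.6, 54.8 and 62.5 CPM with vehicle and at 20.4, 14.1 and 11.1 CPM with RGS (log2 fold change -1.85, adjusted p = 7.03e-06). The RGS tumors of both genes lay far below the vehicle tumors. *Wee1*, the kinase that holds cells before mitosis, and *Tspan4*, a tetraspanin, had log2 fold changes of -1.17 (adjusted p = 0.00184) and -1.01 (adjusted p = 1.62e-04). *Noct*, which encodes nocturnin, had a log2 fold change of -0.66 (adjusted p = 0.0129 from edgeR, and 0.0711 without RGS tumor 12). *Usp2*, a deubiquitinase, did not pass (log2 fold change 0.47, adjusted p = 0.0846).

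Hormonal and second-messenger inputs can reset the clock, mostly through *Per1*. Of 8 glucocorticoid genes, 7 passed the filter, 2 were lower (16.5% of all genes tested), 2 were higher (16.3%) and 3 did not pass, *Per1* among the last. The untested gene was *Zbtb16*, with 19 counts in RGS tumor 10 and 0 in the other tumors. *Nr3c1*, the glucocorticoid receptor itself, was at 122, 111 and 114 CPM with vehicle and 54.8, 50.6 and 48.6 CPM with RGS (log2 fold change -1.17, adjusted p = 1.67e-05 from edgeR). Its targets did not share a direction: *Tsc22d3* fell, as given above, whereas *Sgk1* and *Dusp1* rose (log2 fold changes 0.77 and 0.78, adjusted p = 5.57e-04 and 7.14e-04). *Fkbp5* (-0.62, adjusted p = 0.0543) and *Klf9* (0.21) did not pass, although 5 of 17 other settings placed *Fkbp5* past the threshold. Of 8 cyclic AMP and immediate early genes, 1 was lower, 2 were higher and 5 did not pass, shares of 12.5%, 25% and 62.5% beside 16.5%, 16.3% and 67.2% of all genes tested. *Egr1*, an immediate early zinc finger factor, fell from 272, 257 and 258 to 75.1, 58.3 and 71.8 CPM (log2 fold change -1.94, adjusted p = 4.15e-08 from edgeR), and *Crem*, a factor of the cyclic AMP pathway, rose (1.04, adjusted p = 0.00774). *Fosb* also rose (0.68, adjusted p = 0.0170), a call lost without vehicle tumor 8 (0.0766), vehicle tumor 9 (0.0504) or RGS tumor 12 (0.0513) and with scaling by library size alone (0.0614).

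Some members share exon bases with a gene on the opposite strand, and the strand setting of the counting is not given in the sources used here. *Dbp* shares 539 bases (18% of its exon length) with *Sphk2*, a sphingosine kinase gene. *Sphk2* was at 32.997, 25.6 and 23.6 CPM with vehicle and 51.0, 56.1 and 49.3 CPM with RGS, so it rose (log2 fold change 0.93, adjusted p = 0.00106 from edgeR) where *Dbp* fell. *Nr1d1* shares 263 bases (8.55%) with *Thra*, a thyroid hormone receptor gene. *Thra* was at 91.0, 73.0 and 82.4 CPM with vehicle and 69.5, 71.0 and 64.6 CPM with RGS, a difference that did not pass the test (log2 fold change -0.27, adjusted p = 0.228). *Cry2* shares 295 bases with *D930015M05Rik*, which had at most 14 counts in any tumor. *Arntl* shares 33 bases with *Gm45355*, which had 0 counts in all 6 tumors. The other members share no exon base with another gene of the table. Among the list genes named above as changed, *Tspan4* shares 13.4% of its exon bases with *Chid1*, which did not pass the test (log2 fold change -0.44, adjusted p = 0.0887). *Csnk1e*, *Bhlhe40*, *Tef* and *Csnk1d* share 4.05%, 2.51%, 2.45% and 1.25% with opposite-strand genes that had at most 33 counts in any tumor.

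**Figure D5:**
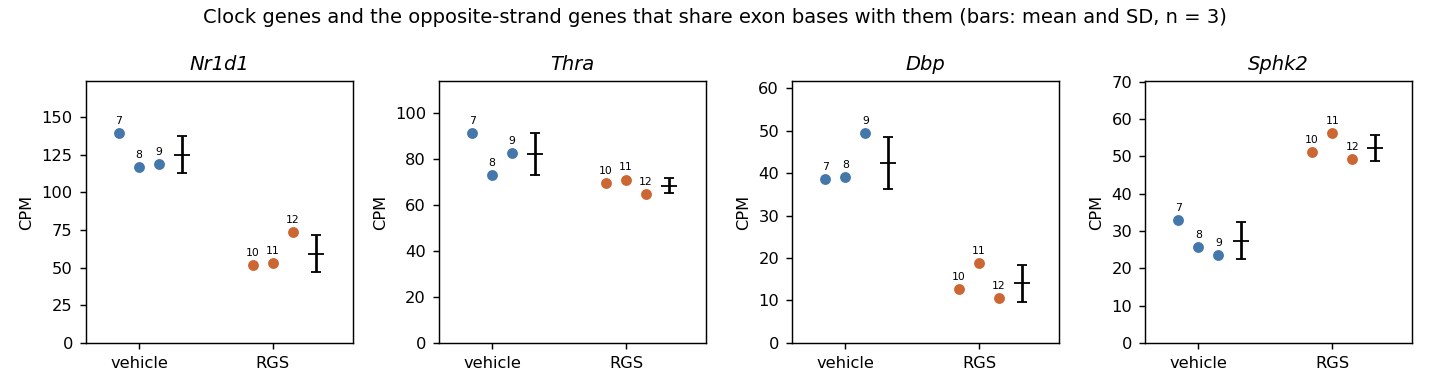
CPM in each tumor (y axis, starting at 0) of *Nr1d1* and *Dbp* and of the opposite-strand genes that share exon bases with them, *Thra* and *Sphk2*, with tumor numbers beside the points. Blue is vehicle, orange is RGS, and bars give the mean and SD (n = 3). *Dbp* is lower and *Sphk2* higher in the RGS tumors, and *Thra* differs less between the groups than *Nr1d1*.

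The libraries held 22793087 to 32555494 counts with vehicle and 13837932 to 21617368 with RGS, so the ranges of depth did not overlap, and depth and treatment cannot be told apart. With all libraries thinned at random to the smallest total, the same numbers of members were called, 5 lower and 1 higher. Ribosomal protein genes took 5.66% to 10.2% of counts with vehicle and 3.15% to 3.68% with RGS, and mitochondrially encoded genes 2.13% to 3.20% and 5.60% to 8.22%. Of 8 melanocyte lineage markers, the defining genes *Mlana*, *Tyr* and *Dct* had 0 counts in all 6 tumors. The summed level of the list was 4.94 to 7.68 CPM with vehicle and 4.53 to 12.7 CPM with RGS. *Mitf* made up most of this sum (4.28 to 7.45 CPM with vehicle and 4.53 to 10.5 with RGS) and did not pass. *Sox10*, *Tyrp1*, *Pmel* and *S100b* had at most 48 counts in any tumor. *Adgre1* of macrophages and *Cd3e* of T cells had 0 counts in all tumors, and skeletal muscle (5 markers, summed 6.34 to 10.6 CPM with vehicle and 3.99 to 8.20 with RGS, *Ckm* and *Myh4* at 0) overlapped between the groups, as did adipocyte markers (6.85 to 11.9 and 6.72 to 14.8 CPM over 5 genes). Summed endothelial markers (5 genes) were at 0.946 to 1.20 CPM with vehicle and 3.24 to 11.2 with RGS, keratinocyte markers (5 genes) at 0.400 to 1.72 and 6.72 to 20.99, macrophage markers (8 genes) at 65.1 to 71.0 and 83.0 to 106 (nearly all from *Cd68* and *Cd14*), T cell markers (6 genes) at 0 to 0.602 and 0.612 to 1.42, and fibroblast markers (5 genes) at 205 to 264 and 151 to 161. Single markers carried several of these sums. Among macrophage markers, *Cd14* rose (log2 fold change 1.66, edgeR adjusted p = 1.36e-04) and *Cd68* did not pass (0.24, adjusted p = 0.293). *Mrc1*, *C1qa*, *Lyz2*, *Csf1r* and *C1qb* had at most 7 counts in any tumor. *Pdgfra* made up most of the fibroblast sum and fell with *Col3a1*, whereas *Dcn* rose (1.14 to 10.7 CPM in the means, log2 fold change 3.24, edgeR adjusted p = 6.23e-05), *Col1a1* did not pass (0.10) and *Lum* had 0 counts. The higher keratinocyte sum came from *Ivl*, with 0 counts in the vehicle tumors and 124, 151 and 321 in the RGS tumors, while *Krt1* had 0 counts, *Krt5* and *Krt14* had at most 2 in any tumor and *Krt10* did not pass. The higher endothelial sum came mostly from *Cdh5*, and *Emcn* had 0 counts. *Pecam1* (log2 fold change 1.88, adjusted p = 0.351 from edgeR) and *Tek* (-1.88, adjusted p = 0.431) did not pass. *Kdr* had at most 6 counts in any tumor. The T cell sum was *Trac* alone with RGS (30, 16 and 10 counts) and *Cd4* alone with vehicle (14 counts in tumor 9). *Cd3e*, *Cd3d*, *Cd8a* and *Cd2* had 0 counts in all tumors. The part of these shares and markers in the clock gene values was not tested. In bulk tumor RNA, fewer cells that express a gene and less RNA of it per cell cannot be told apart.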

How the data were processed

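RNA was sequenced from 6 YUMM3.3 tumors as paired-end reads. The submitters' processing notes name cutadapt 1.18, FastQC 0.11.7, STAR 2.7.1a, featureCounts 1.6.4 and mm10. The settings for strand and for reads that fit several genes are not given in the sources used here. The table the authors deposited holds unnormalized counts of reads for each gene, with columns matched to tumors by title. Positions in the table equal those of GENCODE M21 (GRCm38) for all 38927 gene identifiers found there.

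From the counts, edgeR 4.0.16 in R 4.3.3 was run with TMM factors (0.920 to 1.08), genes kept where either group's median was 5 or more counts, and the quasi-likelihood test, with p-values adjusted by Benjamini-Hochberg across the 15355 genes kept. Standard errors were derived from the fold change and the F statistic. CPM used TMM-scaled totals, and RPKM divides CPM by the deposited length in kilobases. The fit was tested on simulated data. A floor of 3 counts was 0.0922 to 0.217 CPM, for counting error only.

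The named genes are the 10 members, the 4 lists of clock pathway, output, glucocorticoid and cyclic AMP genes, and genes that overlap them. Of the clock pathway list as first drawn up, 2 genes are not reported here, and its counts leave them out. Members and lists were chosen with earlier results of these data known. Alternatives were RLE and upper-quartile factors, library size only, other filters, DESeq2 1.42.0 (the study's tool), limma 3.58.1 voom, robust dispersions, thinning, leaving out mitochondrial and ribosomal protein genes, and leaving out each tumor. With 3 tumors a group, the smallest two-sided p of an exact permutation test is 0.1, and none was used.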

Additional observations from a re-analysis of the deposited data

How the results depend on the processing

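*Dbp*, *Nr1d1*, *Nr1d2* and *Per3* kept their direction and an adjusted p under 0.05 in all 17 other settings, with log2 fold changes from -1.87 to -1.46, -1.28 to -0.98, -1.17 to -0.87 and -1.19 to -0.99. The number of lower members was 5 in each of the 11 settings that keep all tumors and 4 to 5 with 1 tumor left out, and the number of higher members was 1 in 10 of those 11, 0 with library size only and 0 to 1 with 1 tumor left out. With library size only, the median of all genes shifted by -0.14 on the log2 scale and 37.2% of calls were higher, beside 49.7% in the fit reported. There, 1 gene of the cyclic AMP and immediate early list was higher. With limma voom, 7 other clock pathway genes and 2 output genes were higher. Over all genes, limma voom called 3407 of 15355 higher, beside 2503 in the fit reported. With 1 tumor left out, the higher and lower genes numbered 2 to 4 and 3 to 3 in the other clock pathway list, 0 to 1 and 6 to 7 among outputs, and 1 to 2 and 1 to 2 in the cyclic AMP and immediate early list, and all genes 1776 to 2698 and 1717 to 2551. In the glucocorticoid list 2 genes were higher in every setting and 2 to 3 lower, the third being *Fkbp5* with upper-quartile factors, library size only, no low-count filter, thinning or vehicle tumor 9 left out. The cause of these shifts was not tested. Small values that did not pass the test changed sign for *Cipc* (-0.00997 with upper-quartile factors, -0.12 with library size only, and -0.051 to 0.12 with 1 tumor left out, below 0 without vehicle tumor 9, at -0.02, and RGS tumor 12), *Ncor1* (0.18 with limma voom, 0.16 without vehicle tumor 7 and 0.02 without RGS tumor 10) and *Hdac3* (-0.0068 with library size only). No paired analysis was possible because the tumor numbers, 7 to 12, are not shared between the groups. Single tumors were not tested as outliers within their groups of 3. *Per2*, with 29 to 185 counts per tumor and the largest relative spread of any member, had a 95% interval of -1.75 to 0.52, and the parts of depth and tumor spread in its width were not tested.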
